A study of Mus musculus with 2 samples.

Results

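The ectodysplasin genes Eda, Edar and Edaradd and the hair fibroblast growth factor genes Fgf5, Fgf7, Fgf18 and Fgfr2 were examined for called chromatin contacts in hair matrix keratinocytes, proliferating cells of the hair bulb that supply the growing shaft and its inner sheath. These 7 genes were chosen by name, out of 21900 protein-coding genes of the gene table. Contacts came from Hi-C, which reads out, by ligation and sequencing, the pairs of DNA fragments that were neighbours in crosslinked chromatin. There were 2 libraries of sorted primary cells from mice at postnatal day 4.5. One was from mice lacking Tet2 and Tet3 through a Krt14-Cre transgene (DKO), whose Krt14 promoter is active in basal epithelial cells. The other was from wild-type mice (WT). The labels give no number of animals, no sex and no Cre control, so it is not known whether the 2 libraries also differed in the transgene. Each library was represented by a list of enriched pixels, where a pixel stands for 2 genomic bins of 5 kb that share more contacts than their surroundings. A pixel was counted at a gene where 1 of its anchor bins lay within 10 kb of either annotated end of the gene (GRCm38).

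Ectodysplasin is a ligand of the tumour necrosis factor family. It binds the receptor EDAR, which recruits the adaptor EDARADD and activates NF-κB, and loss of any of the 3 proteins impairs the formation of hair placodes in mice (the tabby, downless and crinkled mutants). Among the FGFs, FGF5 promotes the end of the growth phase and its loss gives the long hair of angora mice. FGF7, made by the dermal papilla, acts on epithelial FGFR2, and FGF18 helps to keep resting follicles at rest.

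Of the 7 genes, 1 had a pixel in the DKO list and 3 had one in the WT list. Fgfr2 had 1 pixel in DKO and 2 in WT. Edar and Edaradd had none in DKO and 1 each in WT. The 4 ligand genes Eda, Fgf5, Fgf7 and Fgf18 had none in either list. Over all protein-coding genes, 20.1% had a pixel in the DKO list and 21.2% in the WT list. The share at pixels of the DKO list alone was 7.13%, that of the WT list alone 8.23% and that of both lists 12.9%. Among only 7 genes, nothing is read from counts of 1 and 3 beside these shares. There was 1 library per genotype, so no difference below has a replicate error or a test, and genotype and library cannot be told apart. All intervals are exact, at the 95% level, and cover counting error only. Contacts were summed over all cells of a library, so fewer cells with a contact and a weaker contact in each cell cannot be told apart.

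The promoters of the 3 genes with pixels are shown because the TET enzymes act on methylated cytosine in CpG dinucleotides and because anchors lay at or near 2 of these promoters. The sequences are from RefSeq (GRCm38.p6), from 250 bases before to 50 bases after the start of transcription, 5′ to 3′ on the gene's own strand, which is the minus strand for all 3. Capitals mark CpG dinucleotides.
Fgfr2 (chr7:130266759-130267058): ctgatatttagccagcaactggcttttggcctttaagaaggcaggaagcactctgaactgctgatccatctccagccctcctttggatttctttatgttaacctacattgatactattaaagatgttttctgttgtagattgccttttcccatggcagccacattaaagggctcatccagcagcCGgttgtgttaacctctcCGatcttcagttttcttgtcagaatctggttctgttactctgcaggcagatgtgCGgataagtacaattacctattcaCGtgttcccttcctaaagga
Edar (chr10:58675647-58675946): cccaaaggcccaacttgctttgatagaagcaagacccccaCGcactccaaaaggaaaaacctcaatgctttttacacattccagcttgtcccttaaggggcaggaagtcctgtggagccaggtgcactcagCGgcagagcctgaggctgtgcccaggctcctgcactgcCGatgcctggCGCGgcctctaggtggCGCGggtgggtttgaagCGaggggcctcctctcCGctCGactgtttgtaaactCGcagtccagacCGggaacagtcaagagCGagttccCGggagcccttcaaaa
Edaradd (chr13:12520401-12520700): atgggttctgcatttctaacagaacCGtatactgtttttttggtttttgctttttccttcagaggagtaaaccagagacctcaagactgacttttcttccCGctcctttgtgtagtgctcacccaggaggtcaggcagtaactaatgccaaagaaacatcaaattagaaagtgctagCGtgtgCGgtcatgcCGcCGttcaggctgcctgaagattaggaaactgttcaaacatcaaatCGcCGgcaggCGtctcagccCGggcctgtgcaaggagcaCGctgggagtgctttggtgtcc

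The Fgfr2 promoter held 4 CpGs, the Edar promoter 14 and the Edaradd promoter 11. The median over 21263 promoters of protein-coding genes was 13, with quartiles of 4 and 24, so Fgfr2 stood at the lower quartile and the others near the middle. Of the ligand genes, Fgf7 had 11, Eda 22, Fgf5 29 and Fgf18 47 CpGs, and 1.52% of promoters had more than Fgf18. The promoters were also searched on both strands for AGGNGGC, a 7-letter core of the motif of CTCF, the protein that often marks loop anchors. The core was chosen after the Edar sequence had been seen and after a longer form, not reported here, had been searched. It was found in 33.6% of the promoters and in those of Edar, Eda and Fgf7, so that 3 of the 7 genes stood close to the background. In Edar it read AGGTGGC on the gene's strand, 61 to 55 bases upstream of the start site (58675751 to 58675757 on chromosome 10), and AGGAGGC on the other strand, 32 to 26 bases upstream. A match of letters does not show binding, and a window without a match says nothing about CTCF.

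Fgfr2, the FGF receptor tyrosine kinase through which FGF7 acts on epithelium, occupies 130162451 to 130266808 on chromosome 7 and is read from the minus strand. Its start site lay inside the anchor bin 130265001 to 130270000, as did the promoter printed above. This bin was joined to the bin 129650001 to 129655000 in both lists, over 615 kb. The pixel had 21 contacts in DKO (exact Poisson interval 13.0 to 32.1) on a donut expected count of 3.30, and 26 contacts in WT (17.0 to 38.1) on 3.20. The donut is the ring of pixels around the tested one, and the observed count divided by its expected count is called enrichment here. Enrichment was 6.36 in DKO (3.94 to 9.72) and 8.12 in WT (5.30 to 11.9). The DKO/WT ratio of enrichment was 0.784, with an interval of 0.419 to 1.45 that included 1, so no difference was detectable at this depth. Over the 1940 pixels listed in both libraries the median ratio was 0.983 (quartiles 0.841 and 1.15), and 15.9% of them had a lower ratio than Fgfr2. The authors' false discovery rates (FDRs) for the pixel were at most 0.0027 in DKO and 6.85e-06 in WT over the 4 neighbourhoods.

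The Fgfr2 contact was long. In the DKO list 98.4% of pixels had a shorter span and in the WT list 98.1%. The median span was 100 kb for DKO pixels against 115 kb for WT pixels. Pixels of 615 kb or more numbered 76 in DKO and 109 in WT, and 21 of them were listed at the same bins in both. The contact was also among the more enriched ones, above 77.0% of DKO pixels and 90.1% of WT pixels. The body of Fgfr2 runs from the anchor towards the partner, and no other protein-coding gene lay whole between the anchors.

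The WT list held a further pixel of Fgfr2 at the adjoining bin, 129645001 to 129650000, over 620 kb. It had 20 contacts and an enrichment of 7.76 (4.74 to 12.0), and it touches the first WT pixel, so both may be read as 1 contact. The partner bins lay inside Gm33122, an lncRNA gene annotated from 129644125 to 129658085, and 1 of them also overlapped Gm51499, another lncRNA gene. The bin of the WT pixel of 620 kb lay 9.26 kb from an end of Wdr11, a WD-repeat protein gene. By the share of pixels in common Wdr11 was the gene most like Fgfr2, with 1 shared pixel of 4 in the pooled lists (Jaccard index 0.25). The lncRNA genes were named after their values were seen.

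Around the partner of Fgfr2, 4 pixels were listed in WT and 1 in DKO. Besides the pixels to the Fgfr2 start, WT had 12 contacts over 830 kb to the bin at 130475001, inside Ate1, at an enrichment of 6.22 (3.21 to 10.9). That pixel enclosed the whole of Fgfr2. WT also had 13 contacts over 265 kb from 129650001 to 129915001 at an enrichment of 5.49. The DKO list had neither, but it held a pixel of 40 kb beyond the 3′ end of Fgfr2 (130040001 and 130080001), with 26 contacts at an enrichment of 2.82 (1.84 to 4.14) and 77.5 kb from the gene. In the WT list 1.48% of pixels had fewer than the 12 contacts of the pixel over 830 kb. The FDRs of that WT pixel reached 0.0999, at the edge of the list, and those of the DKO pixel of 40 kb reached 0.0537.

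**Figure D1:**
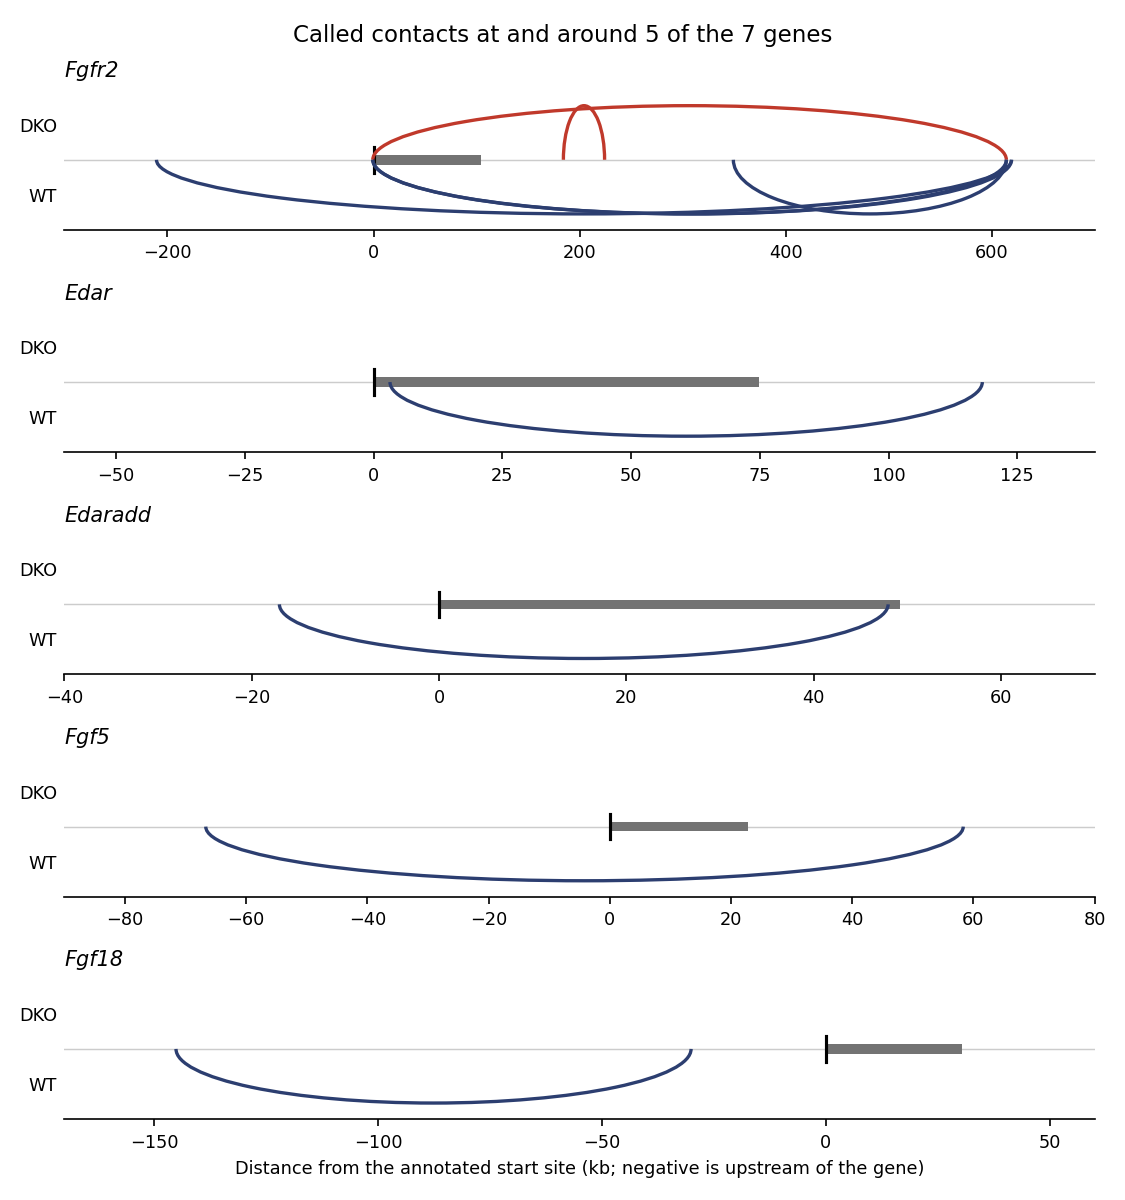
Called pixels at and around 5 of the 7 genes, drawn as arcs between anchor centres against the distance from each gene's start site in kb, with DKO arcs above and WT arcs below the line and the gene body as a grey bar from its start (black tick). The long contact from the Fgfr2 start is drawn in both libraries, and the arcs at Edar, Edaradd, Fgf5 and Fgf18 are drawn in WT alone.

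Edar, the ectodysplasin receptor, occupies 58600780 to 58675696 on chromosome 10 and is read from the minus strand. No DKO pixel lay within 489 kb of either end. In WT the bin 58670001 to 58675000, inside the gene and 696 bp from its start site, was joined over 115 kb to the bin 58555001 to 58560000. The partner bin lay in the body of Ccdc138, a coiled-coil protein gene, and over the pseudogene Gm18042. No protein-coding gene had an end within 10 kb of the partner, so no gene shared the pixel. The WT pixel had 17 contacts (9.90 to 27.2) on a donut expected count of 3.35, an enrichment of 5.07 (2.96 to 8.12). Edar had no WT pixel where its end had to lie inside the anchor bin or where a pixel needed at least 20 contacts. Its span and enrichment were near the middle of the WT list, with 48.2% of pixels shorter and 48.9% less enriched. The contact runs from the start of Edar across the gene and past its 3′ end.

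Whether the Edar contact differs between the libraries could not be measured, since the DKO list gives no count for a pixel that was not called. Of 873 DKO pixels with a donut expected count within 10% of 3.35, the lowest had 13 contacts. That number lies inside the interval of the WT count, so a DKO count too low to be listed need not differ from the WT count beyond counting error. The nearest DKO pixel to the Edar contact had anchors at 59165001 and 59290001, up to 620 kb away on the same chromosome.

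Edaradd, the adaptor that couples EDAR to NF-κB, occupies 12471209 to 12520535 on chromosome 13 and is read from the minus strand. The nearest anchor of the DKO list lay 2124 kb from the gene. In WT the bin 12470001 to 12475000, which holds the 3′ end of the gene, was joined over 65 kb to the bin 12535001 to 12540000. The partner bin lay 14.6 kb upstream of the start site, outside any annotated gene. The contact thus brackets the whole transcription unit and, unlike those of Edar and Fgfr2, has its anchor at the 3′ end. The pixel had 21 contacts (13.0 to 32.1) on a donut expected count of 4.90, an enrichment of 4.29 (2.65 to 6.55). It was weaker than most, with 28.8% of WT pixels less enriched. Its highest FDR, that of the horizontal neighbourhood, was 0.0199, so the pixel was not kept at an FDR under 0.01, nor without isolated weak pixels.

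Lgals8, which encodes the carbohydrate-binding protein galectin-8, ends 5.02 kb from the Edaradd anchor. It shared the only pixel of Edaradd and had no other (Jaccard index 1), so the pixel cannot be given to Edaradd rather than to Lgals8 by position. Among 718 DKO pixels of a like expected count the lowest had 15 contacts, again inside the interval of the WT count.

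**Figure D2:**
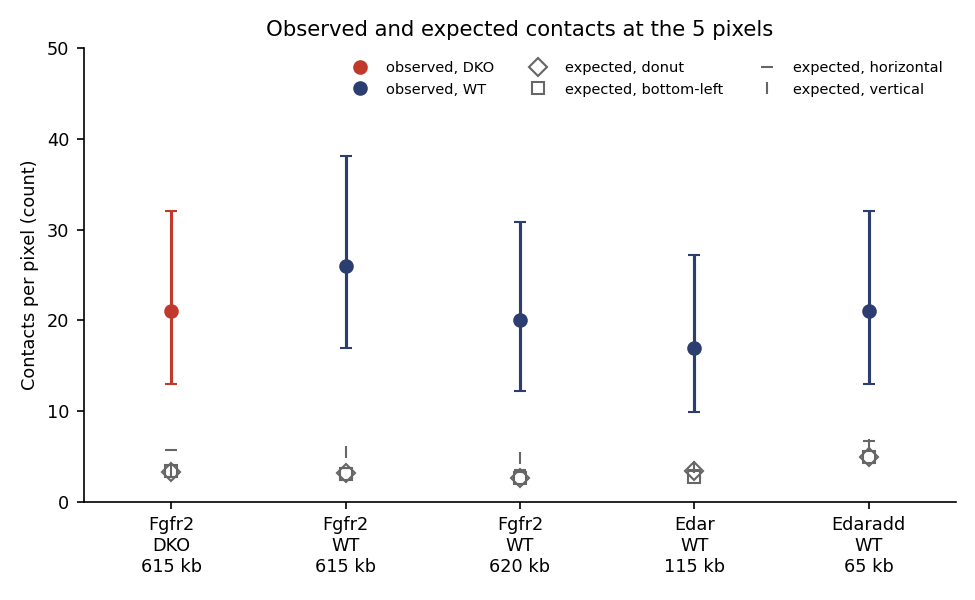
Observed contacts at the 5 pixels of Fgfr2, Edar and Edaradd (circles, with exact 95% Poisson intervals) and the contacts expected from the 4 neighbourhoods (grey symbols), by gene, library and span. Every observed count lies above all 4 of its expected counts, which follows from the calling, since only pixels enriched over these neighbourhoods are listed. The intervals of the DKO pixel and the WT pixel of Fgfr2 at 615 kb overlap.

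The 5 pixels covered a wide range of spans. The DKO pixel spanned 615 kb, and the WT pixels 65, 115, 615 and 620 kb. They joined a gene's start in 4 cases (Fgfr2 in both libraries and Edar) and a 3′ end in 1 case (Edaradd). None of the partner bins held an end of a protein-coding gene, and the nearest was that of Wdr11. No pixel joined 2 of the 7 genes, which lie on 7 different chromosomes. The DKO pixel had a counterpart in WT within 10 kb at both anchors, and 2 of the 4 WT pixels (exact binomial interval 6.76% to 93.2%) had one in DKO. Those 2 were the adjoining Fgfr2 pixels, which match the same DKO pixel. The share of all pixels with a counterpart within 10 kb was not computed, so nothing is read from these counts. At the same bins, 1940 pixels were listed in both, of 4872 in DKO and 5811 in WT.

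**Figure D3:**
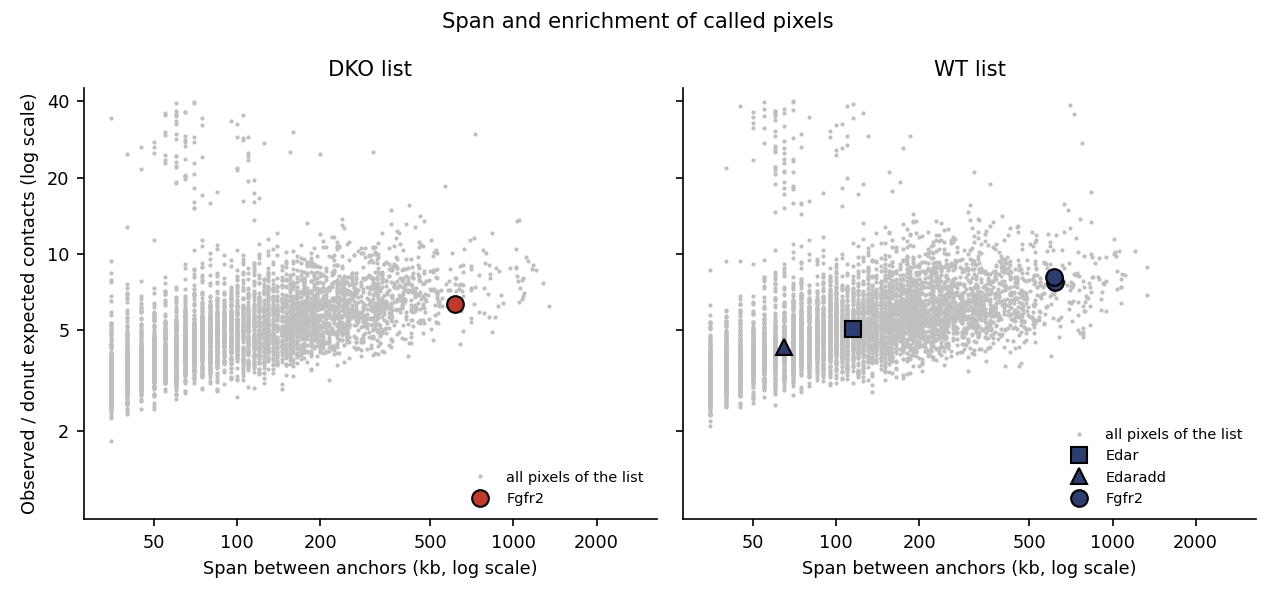
Span between anchors (kb, log scale) against enrichment (observed divided by donut expected contacts, log scale) for the pixels of the DKO list and the WT list (grey), with those at Fgfr2, Edar and Edaradd marked. The Fgfr2 pixels of both libraries lie at the long end of the lists, and 50 DKO and 33 WT pixels with an enrichment over 40 or below 1 or a span over 3000 kb are not drawn.

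The ligand genes had no pixel within 10 kb, nor within 20 kb, in either list. Fgf5, the signal that ends hair growth (chromosome 5, 98254184 to 98277033), had its nearest DKO anchor 968 kb away. In WT it lay inside a pixel of 125 kb from 98185001 to 98310001, whose near anchor was 33.0 kb from the gene. That pixel had 13 contacts at an enrichment of 5.26 (2.80 to 9.00), and its left anchor held an end of Prdm8, a PR-domain transcription factor gene. Fgf5 was the only ligand gene enclosed by a listed pixel, in WT alone. That pixel was low in the WT list, where 8.54% of pixels had fewer contacts, and its FDRs reached 0.0385.

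Fgf18, the ligand linked to follicle rest (chromosome 11, 33116970 to 33147400), had its nearest DKO anchor at 407 kb and its nearest WT anchor at 27.6 kb, upstream of its start. That WT pixel ran over 115 kb to 33290001, inside Ranbp17, with 11 contacts at an enrichment of 7.00 (3.50 to 12.5). It lay near the floor of the WT list, where 0.0172% of pixels had fewer contacts, and its FDRs reached 0.0449. Farther off, both lists held 2 pixels between Stk10 and the body of Fbxw11, at the same bins. At the stronger of these in DKO there were 25 contacts in DKO (16.2 to 36.9) and 17 in WT (9.90 to 27.2), with overlapping intervals. The other had 20 contacts in DKO and 17 in WT. Chromosome 11 was rich in contacts, with a pixel at 31.8% of its protein-coding genes in DKO and 35.4% in WT, yet Fgf18 had none.

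Fgf7, the ligand from the dermal papilla (chromosome 2, 126034658 to 126091185), had its nearest anchors at 299.7 kb in the DKO list and 295 kb in the WT list. These belonged to contacts among Eid1, Shc4 and Secisbp2l, with 16 and 17 contacts in DKO and 18 in WT. Eda, the ectodysplasin ligand, is the longest of the genes at 425 kb (chromosome X, 99975606 to 100400760). Its nearest anchors lay 451 kb away in the DKO list and 401 kb away in the WT list. They belonged to pixels whose other anchor lay 1.06 kb from Efnb1, the gene of an ephrin. Chromosome X held 22 pixels in the DKO list and 31 in the WT list. Only 1.97% of its protein-coding genes had a pixel in DKO and 2.90% in WT.

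**Figure D4:**
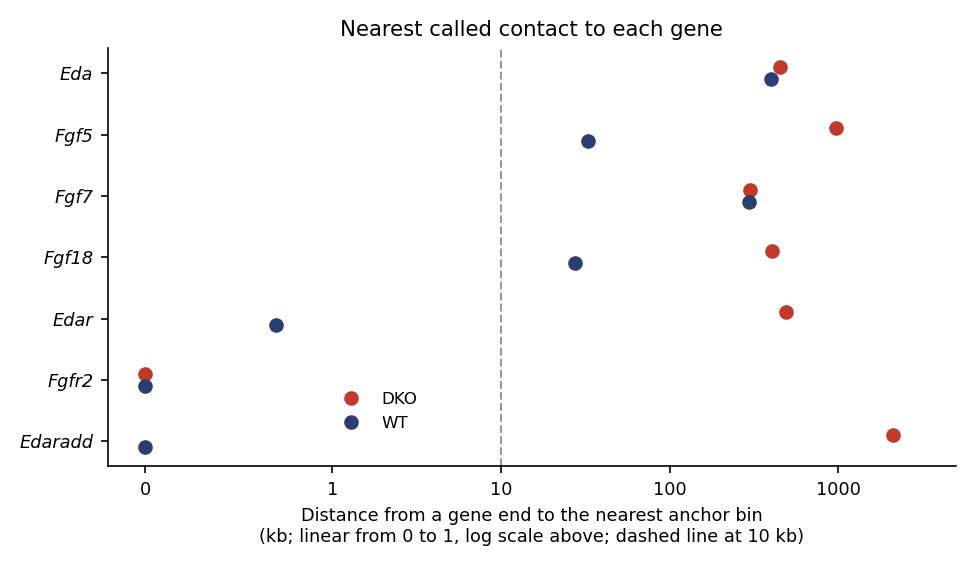
Distance in kb from either end of each of the 7 genes to the nearest anchor bin of a called pixel, in the DKO list and in the WT list (linear from 0 to 1 kb, log scale above), with the 10 kb window as a dashed line. Fgfr2 is at 0 in both lists, Edar and Edaradd lie inside the window in WT alone, and the 4 ligand genes lie outside it in both.

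Other genes of the ectodysplasin and FGF pathways were taken from a list of 42. Of these, 13 had a pixel in the DKO list and 13 in the WT list, 9 of them in both, 4 in DKO alone and 4 in WT alone. The share of all protein-coding genes was 20.1% in DKO and 21.2% in WT, with 12.9% in both, 7.13% in DKO alone and 8.23% in WT alone. The count is a description and was not tested.

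All 4 FGF receptor genes, Fgfr1 to Fgfr4, had a pixel in DKO and 3 of them had one in WT. Of 10 FGF genes, Fgf5, Fgf7 and Fgf18 included, none had a pixel in DKO and Fgf2 alone had one in WT. Fgfrl1, which had none, was not counted among the receptors. Beside these counts, 20.1% of all protein-coding genes had a pixel in DKO and 21.2% in WT. The groups are small, and no contrast of receptors with ligands is read from them. Fgfr1 had 4 pixels in each list with spans of 285 to 310 kb. One of these, over 310 kb, was listed at the same bins in both, with 17 contacts in DKO at an enrichment of 6.24 (3.64 to 10.0) and 18 in WT at 6.51 (3.86 to 10.3). Its partner bin had an end of Tacc1 within 10 kb, and those of the other pixels had no end of a protein-coding gene there. The anchor at Fgfr1 had an end of Letm2 within 10 kb in every case, so by position these pixels cannot be given to Fgfr1 rather than to Letm2. Fgfr3 had 5 pixels in DKO and 7 in WT, all of 65 kb or less, most of them to bins within 10 kb of Tacc3. In each list most of their Fgfr3 anchors also had an end of Letm1 within 10 kb. At the 3 Fgfr3 pixels listed at the same bins the DKO/WT ratios of enrichment were 0.924, 1.03 and 1.32, and the interval of each included 1. Fgfr4 had 1 pixel, in DKO, which bracketed the gene over 35 kb with 17 contacts at an enrichment of 2.85 (1.66 to 4.56). Its FDRs were weak, at 0.0507 to 0.0839 over the 4 neighbourhoods. The 615 kb of Fgfr2 was thus the longest span among the receptor genes in DKO, as was its 620 kb in WT.

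Of the other proteins at the cell surface, Fgfbp1, which releases FGFs from the matrix, had 2 pixels in DKO and none in WT, the more enriched with 20 contacts at an enrichment of 4.09 (2.50 to 6.32). An end of Prom1 lay within 10 kb of the Fgfbp1 anchor of both, so by position these pixels cannot be given to Fgfbp1 rather than to Prom1. The syndecan gene Sdc1 had 1 pixel in DKO and 2 in WT, and none of these matched between the lists. Fgf2 had 2 WT pixels, the more enriched joining both sides of the gene over 70 kb with 21 contacts at an enrichment of 6.57 (4.07 to 10.0). Fgfrl1 had none in either list.

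Of 12 genes on the route from EDAR to NF-κB, with the target gene Ltb counted among them, 3 had pixels, each in both lists. Beside this, 12.9% of all protein-coding genes had a pixel in both and 28.3% had one in either. Nfkbia, which encodes the inhibitor IκBα, had 4 pixels in DKO and 7 in WT, most of them over 175 to 195 kb to bins that overlap Prorp. The one with the most contacts, over 180 kb and at the same bins in both lists, had 23 contacts in DKO at an enrichment of 6.86 (4.35 to 10.3) and 23 in WT at 6.01 (3.81 to 9.02). The most enriched Nfkbia pixel was at 8.47 in DKO and, at other bins, at 7.51 in WT. Nfkb2, an NF-κB subunit gene, was joined over 170 kb to Elovl3 and Pitx3 at the same bins in both lists, with 21 contacts in DKO and 25 in WT. An end of Psd lay nearer to this anchor than that of Nfkb2, so position does not assign the pixel to Nfkb2. Ltb, a target of ectodysplasin signalling in mouse skin, had 2 pixels in DKO and 3 in WT, shared with its neighbours Lst1 and Aif1. The receptor genes Eda2r, Tnfrsf19 and Relt had none, nor had Traf6, Tab2, Map3k7, Ikbkb, Ikbkg, Chuk, Nfkb1, Rela and Relb.

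Among genes that relay the FGF signal inside the cell, 4 of 7 had a pixel in either list, beside 28.3% of all protein-coding genes. In DKO 2 of the 7 had one, beside 20.1% of all protein-coding genes, and in WT 3 of the 7, beside 21.2%. Grb2, an adaptor, had 3 in each list, Frs2, a docking protein of FGF receptors, had 1 in DKO alone, and its relative Frs3 and the docking protein gene Gab1 had 1 each in WT alone. The anchor near Frs2 held an end of Cct2, and that of Frs3 also held ends of Prickle4, Tomm6 and Usp49. Position therefore does not assign these pixels to Frs2 or to Frs3. Among feedback inhibitors and targets of FGF signalling, 4 of 7 had one in either list and 3 of 7 in each list. These are counts of few genes, and nothing is read from them. Spred1, an inhibitor of the RAS route, had 2 pixels in DKO and 4 in WT, and the most enriched, over 280 kb at the same bins in both lists, had 23 contacts in DKO at an enrichment of 7.53 (4.77 to 11.3) and 29 in WT at 9.45 (6.33 to 13.6). The transcription factor gene Etv4 had 2 in DKO and 1 in WT, all at anchors that also had an end of Dhx8 within 10 kb. The WT pixel of Etv4 had 12 contacts and FDRs up to 0.0999. The FGF antagonist gene Spry1 had 1 in DKO alone, and Spred2 had 1 in WT alone. Their FDRs were weak and reached 0.0826 at the Spry1 pixel and 0.0722 at the Spred2 pixel. Etv5, Dusp6 and Spry2 had none.

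At 13 pixels of 7 of these genes both lists had the same bins. Their DKO/WT ratios of enrichment ran from 0.746 at Grb2 to 1.56 at Nfkbia, with a median of 0.959. All 13 intervals included 1. The Fgfr2 ratio of 0.784 lay within this range. Only pixels listed in both libraries enter, so a contact called in DKO alone or in WT alone gives no ratio. These ratios therefore say nothing about such contacts. Some of the 13 pixels also adjoin others of the same gene and are not separate contacts.

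**Figure D5:**
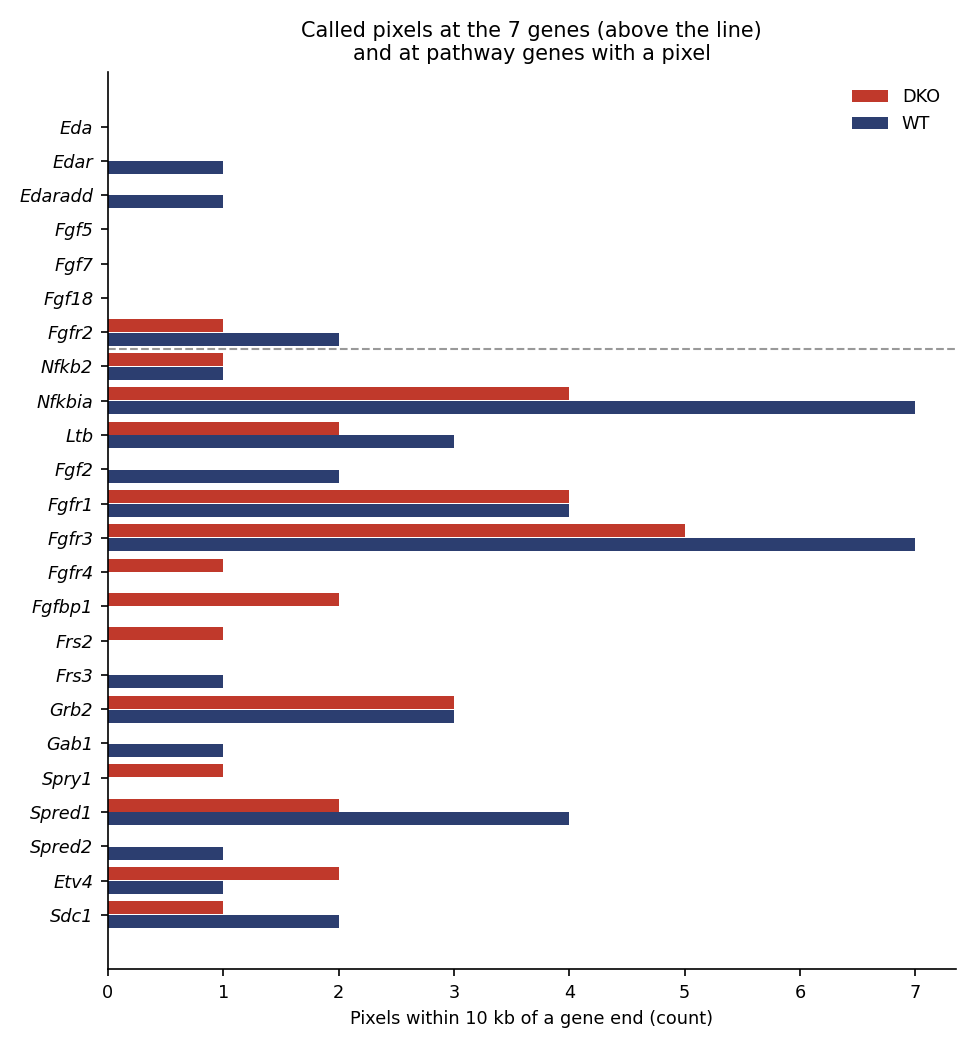
Number of pixels within 10 kb of a gene end in the DKO list and in the WT list, for the 7 genes (above the dashed line) and for the 17 genes of the pathway list with a pixel in either list. Fgfr2, Fgfr1 and Fgfr3 have pixels in both lists, and the 4 ligand genes Eda, Fgf5, Fgf7 and Fgf18 have none.

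Over the whole lists there were 4872 pixels in DKO and 5811 in WT, with a median of 18 contacts per pixel in each. Total sequencing depth is not given in the sources used here. At pixels listed in both, the donut expected count in DKO was 0.973 of that in WT (quartiles 0.904 and 1.05), and at the Fgfr2 pixel it was 1.03. The part of depth in the longer WT list, and in the WT pixels of Edar and Edaradd, was not tested.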

How the data were processed

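Hi-C libraries of sorted hair matrix keratinocytes, 1 DKO and 1 WT, were made with Arima enzymes per the labels' protocols. The authors deposited 1 list of enriched pixels per library, written by juicer_tools 1.22.01 per the file headers, with Juicer and GRCm38 (mm10) given in the submitters' processing notes. The sources used here name no aligner, read filter or calling setting. The deposited observed value is a raw contact count. The deposited expected values are a signal on the scale of counts, from 4 neighbourhoods. The deposited q-values (FDRs) are the authors' own, all under 0.1, and a deposited score numbers the class of expected counts and was not used. Only called pixels are listed, so nothing is known of other pairs of bins.

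Gene ends were taken from RefSeq (GRCm38.p6), and strands and start sites from its promoter table, which matched all 7 genes with 1 start each. The genes and lists were chosen with earlier results of these data known. Named were the 7 genes, protein-coding genes within 10 kb of an anchor of their pixels, up to 3 genes with the highest Jaccard index per gene, and pathway list genes with a pixel. Span is the distance between bin starts. Counts got exact 95% Poisson intervals, shares exact binomial intervals and ratios conditional binomial intervals, with expected counts taken as fixed, in Python 3.11.15 with pandas 2.3.3 and SciPy 1.17.1. Code was checked on simulated pixels. No test was run, since each genotype has 1 library. Alternatives were windows of 5, 0 and 20 kb, an FDR under 0.01, a minimum of 20 contacts, removal of isolated pixels whose FDRs sum to over 0.02, other matching distances and other expected counts. Coordinates are 1-based.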

Additional observations from a re-analysis of the deposited data

How the results depend on the processing

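No paired analysis was possible because there was a single library of each genotype, so none could be left out either. Of 128 values recomputed under 10 alternatives, 103 stayed and 25 moved, where a value with an interval had to stay inside the interval of its main value, and a count or a median within 1.5 times of it. By this rule a change from 3 genes to 2 stayed, and the enrichment of a gene that lost its pixel gave no value. The intervals of the counterpart shares were wide, at 2.50% to 100% in DKO and 6.76% to 93.2% in WT. The tally therefore does not measure how firm the results are. The DKO list kept Fgfr2 alone under every window and filter tried. The WT list had 2 of the 7 genes in place of 3 with gene ends inside the anchor bin or at least 20 contacts, where Edar was lost, and at an FDR under 0.01 or without isolated weak pixels, where Edaradd was lost. In these 4 settings the median span of the WT pixels was 615 kb in place of 365 kb, because a shorter pixel was left out. Against the largest of the 4 expected counts, Fgfr2 enrichment was 3.71 in DKO and 4.71 in WT, and the median over the WT pixels was 4.26 in place of 6.42. The DKO/WT ratio at Fgfr2 was 0.788 with that count and 0.714 with the bottom-left count.

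Pathway genes with a pixel numbered 7 in DKO and 8 in WT with gene ends inside the bin, 8 in DKO at an FDR under 0.01, 7 in DKO at 20 contacts or more, and 8 in WT without isolated weak pixels. The share of all protein-coding genes was 15.9% in DKO and 16.3% in WT at 5 kb, 8.99% in DKO and 9.44% in WT inside the bin, and 26.1% in DKO and 28.1% in WT at 20 kb. It was 9.51% in DKO and 10.8% in WT at an FDR under 0.01, 9.48% in DKO and 10.6% in WT at 20 contacts or more, and 12.1% in DKO and 13.8% in WT without isolated weak pixels. With 17 to 26 contacts per pixel, counting error limits each value.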

Other observations

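Contacts do not measure transcripts, so the cell type of the libraries could not be checked against its markers. As a description, 4 of 6 genes of the hair matrix and its precursors (Msx2, Dlx3, Foxn1 and Shh) had a pixel within 10 kb in both lists, and Lef1 and Hoxc13 had none. Over all protein-coding genes 20.1% had one in DKO, 21.2% in WT, 12.9% in both and 28.3% in either. Of 3 keratinocyte genes Krt14 had 5 pixels in DKO and 2 in WT, and Krt5 and Trp63 had none. Of 4 dermal papilla and fibroblast genes, Col1a1 had 3 pixels in DKO and 6 in WT, Pdgfra 1 in DKO alone, Sox2 1 in WT alone, and Lum had none. Of 4 melanocyte genes Pmel had 2 pixels, in WT, and Dct, Tyr and Mlana had none.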
